A study of Rattus norvegicus with 12 samples.

Results

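Messenger RNA of 20 genes for voltage-gated and related ion channels was compared between rats labelled alcoholic and the control rats paired with them, in tissue punches labelled NTS. The genes were chosen by name alone. The families were potassium (Kcn), sodium (Scn), calcium (Cacna, Cacnb and Cacng), chloride (Clcn) and TRP (Trpc, Trpm and Trpv) channels. Every array feature to which the probe annotation gave a single symbol of these families was taken. That gave 42 of the 18144 features, or 21 clones, each printed as 2 neighbouring spots that were averaged. Cacnb2 had 2 clones and each other gene had 1. The hyperpolarization-activated Hcn channels were in the rule too, but 0 features carried such a symbol. One gene that the name rule took in, Trpc4ap, encodes a protein that binds a TRP channel and is no channel itself, which leaves 19 channel subunit genes. A further 10 features, each with several symbols of which at least 1 matched the rule, were left out.

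There were 6 alcoholic and 6 control rats, joined by the labels into 6 animal pairs, with 1 array of 2 colours each. The series title speaks of ethanol treatment; what NTS stands for, the ethanol dose and duration, and the rats' strain, sex and age were not given in the labels. Punches came from slices of 250 µm and were combined, and the RNA was amplified before labelling. On each array the animal's RNA carried Cy5 and a reference RNA, whose composition the labels do not describe, carried Cy3.

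Each value below is the log2 ratio of the animal's signal to the reference, shifted so that the median of its array is 0. A value of 1 means that the ratio was 2-fold above that of the middle feature of the array. It is not an expression level that can be set against another gene's. The dyes make sample over reference the likely direction, but the deposited table does not state it; were it the reverse, all signs given here would flip. Array medians before centring were 0.35 to 1.85, and 484 to 726 exact zeros per array were treated as missing. Every array correlated with each of the others at r of at least 0.86 across features. Of the marker genes for neurons 3 of 9 were measured, and for noradrenergic neurons 2 of 5 (Phox2a and Slc18a2). Astrocyte, oligodendrocyte and microglia markers had 4 of 9, 3 of 7 and 4 of 6 measured genes. Endothelium, blood and choroid plexus markers had 3 of 5, 2 of 3 and 2 of 2. Peripheral sensory neuron markers had 2 of 4 (Calca and the channel clone Trpv1) and muscle markers 1 of 5 (Tnnt2). Median differences, alcoholic minus control, were -0.16, -0.03, -0.23, -0.11 and -0.66 for these 5 in that order. For neuron, noradrenergic neuron, astrocyte, oligodendrocyte and microglia markers they were -0.03, 0.04, 0.22, 0.04 and 0.01. Of the 5 astrocyte clones 4 stood above 0 and 1 below, from -0.14 for a clone of Aldoc to 0.37 for S100b. Of all the markers measured 0 were called by limma at an adjusted p of 0.05 and 0 had an unadjusted p under 0.05. A ratio to an undescribed reference does not show whether a cell type is present.

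Ion channels are pores in the cell membrane that pass selected ions. In a neuron, sodium channels carry the upstroke of the action potential, potassium channels end it and hold the cell near rest, and calcium channels turn the electrical signal into transmitter release and calcium signalling. Chloride and TRP channels add background, sensory and receptor-driven currents. Several potassium and calcium channels are known as targets of ethanol at the protein level, which a measurement of RNA does not address.

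No ion channel clone was called as different between alcoholic and control rats. In limma's paired test with Benjamini-Hochberg adjustment over all 12343 clones and unnamed features tested, 0 of the 21 channel clones passed an adjusted p of 0.05, and the same held for 0% of all those tested. The adjusted p was 0.999 for each of the channel clones, and 0 of them had an unadjusted p under 0.05, against 2.42% of all tested. In tissue punches, fewer cells of a type and less RNA per cell cannot be told apart. The smallest unadjusted p by limma among them was 0.140, for Cacna1g. The groups overlapped for every channel clone (0.00872% of all those complete on 12 arrays did not overlap), and no channel clone went one way in all 6 pairs, which 1.64% of all complete ones did.

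The mean differences of the channel clones lay on both sides of 0. Of the channel clones 12 stood above and 9 below 0, where 51.7% of all tested stood above it, and 10 lay within 0.1 of 0 on the log2 scale. Their median difference, alcoholic minus control, was 0.04, against 0.01 over all tested. With 6 animals per group, the 95% intervals bound the size of change that fits these arrays. The interval stayed inside 2-fold up or down for 18 of the 21 clones (86.7% of all tested) and inside 1.5-fold for 15 (65.9% of all tested). Of the 12343 tested, 5005 were named clones and the rest unnamed features of 1 spot each. The shares over all tested thus rest largely on single spots, and the channel clones on averages of 2. The 3 clones with wider intervals were Kcnk2, Kcnk3 and Cacna1h, for which a 2-fold change in at least 1 direction lay within the interval.

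**Figure D1:**
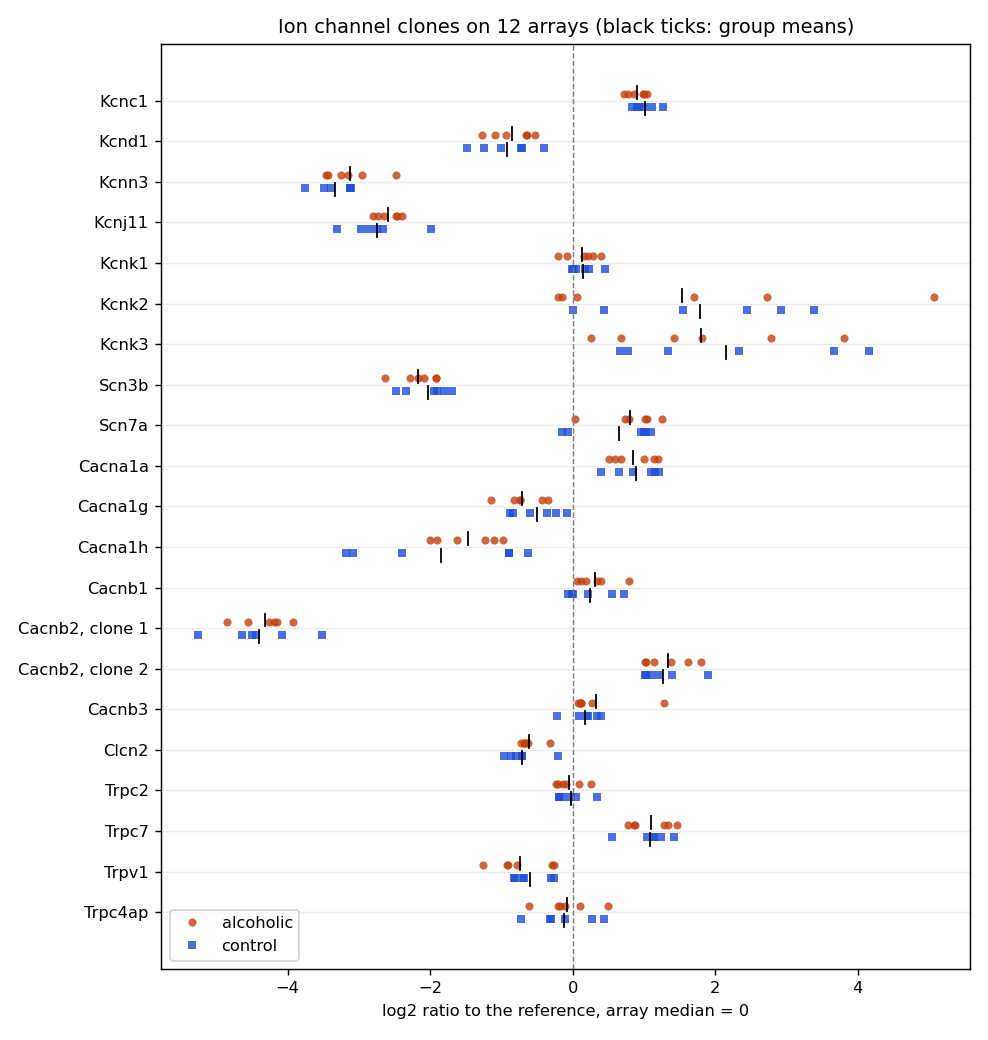
The horizontal axis is the log2 ratio to the reference with each array's median at 0; each row is a clone, with 6 alcoholic (circles) and 6 control arrays (squares) and a black tick at each group's mean. The groups overlap in every row, and Kcnk2, Kcnk3 and Cacna1h spread widest.

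**Figure D2:**
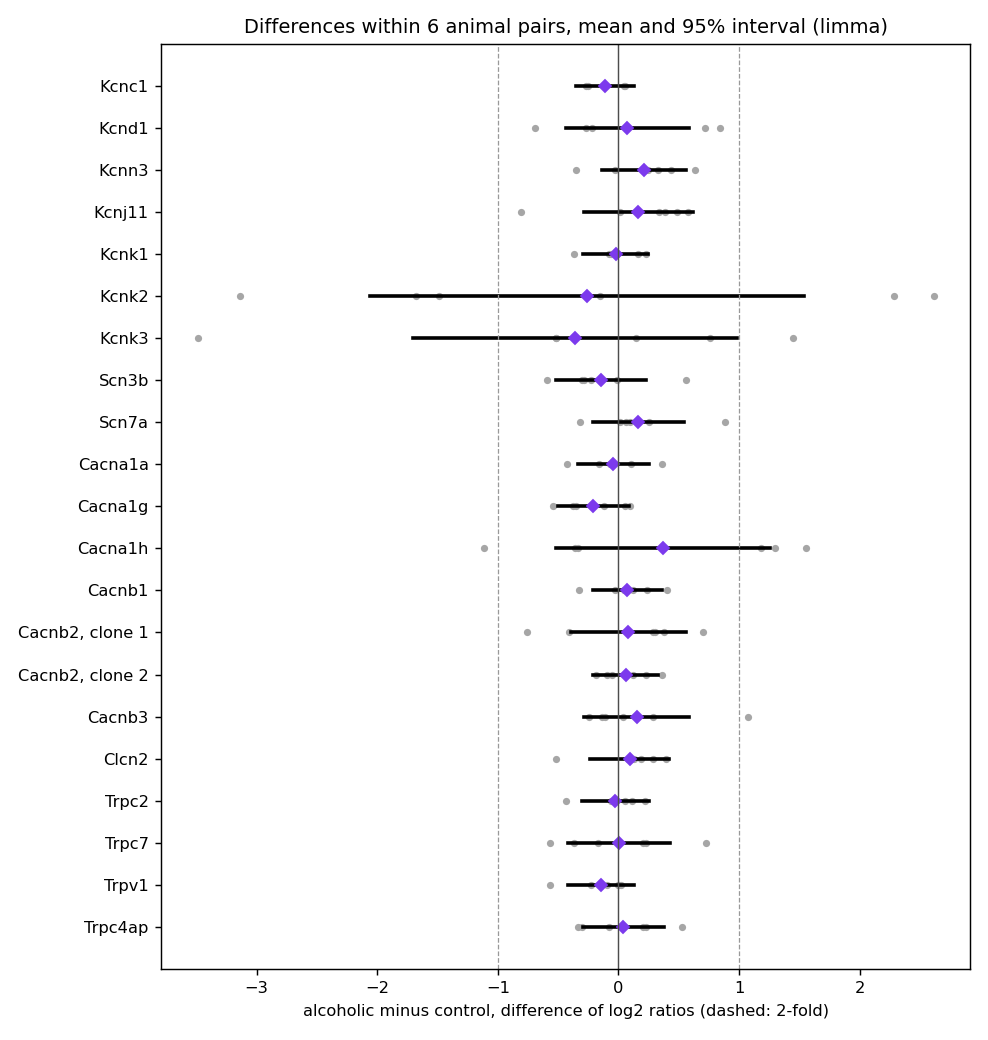
The horizontal axis is the alcoholic minus control difference in log2 ratio; grey points are the 6 animal pairs, diamonds the mean difference and bars limma's 95% interval, with dashed lines at a 2-fold change. All 21 bars cross 0, and 3 of them cross a dashed line.

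Among the voltage-gated potassium channels, Kcnc1 encodes a fast delayed rectifier that lets neurons fire at high rates. It was the steadiest channel clone on these arrays. The ratios ranged over 0.72 to 1.04 with a median of 0.92 in alcoholic and over 0.84 to 1.26 with a median of 0.96 in control rats. The groups overlapped between 0.84 and 1.04. Kcnc1 differed by -0.11 (SE 0.10, lower in 4 of 6 pairs), a ratio of 0.928 with an interval from 0.785 to 1.10. Its SD over the 12 arrays, 0.15, was below that of all but 1.55% of complete clones and unnamed features. Each unnamed feature is 1 spot, whereas a channel clone is the average of 2.

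Kcnd1 encodes a subunit of the transient A-type potassium current, which delays firing. Its ratios were -1.27 to -0.53 in alcoholic rats (median -0.80) and -1.48 to -0.40 in controls (median -0.86). Pairs 1 and 6 stood at 0.71 and 0.84 above their controls and pair 3 at -0.69, so that the pairs were split 3 to 3. Kcnd1 differed by 0.07 (SE 0.22) on average, and the sign turned to -0.05 without pair 1 and -0.08 without pair 6.

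Kcnn3, a small-conductance potassium channel that opens on calcium and shapes the pause after a spike, had the second smallest p of the channel clones (0.197 by limma). All its ratios lay far below the array median. They ran from -3.46 to -2.48 with a median of -3.20 in alcoholic rats and from -3.76 to -3.11 with a median of -3.26 in controls. The highest value was that of the alcoholic rat of pair 4, and pairs 1, 2, 4 and 5 had positive differences (0.44, 0.33, 0.64 and 0.24), pairs 3 and 6 negative ones (-0.03 and -0.35). This gave a mean difference of 0.21 (SE 0.15), a ratio of 1.16 with an interval from 0.910 to 1.47. Leaving out single pairs gave 0.13 without pair 4 to 0.32 without pair 6.

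Kcnj11 encodes the pore of the ATP-sensitive potassium channel, which ties membrane potential to the cell's energy state. Its ratios were -2.80 to -2.40 in alcoholic rats (median -2.56) and -3.31 to -1.99 in controls (median -2.80). The control values enclosed all the alcoholic ones. In 5 of 6 pairs the alcoholic rat was higher, by 0.01 to 0.57, and in pair 3 it was lower by 0.80, where the control had the highest value of all 12 arrays. The mean difference was 0.17 (SE 0.19), with 0.36 without pair 3 and 0.08 without pair 2. It was 0.0025 on the first spot alone and 0.33 on the second. The fit without pair 3 gave the smallest unadjusted p of this clone, 0.0238, and limma's adjusted p was then 0.952.

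The two-pore potassium channels carry the background leak that sets the resting potential, and 3 of their genes were measured. Kcnk1 was steady near the array median. Its ratios were -0.20 to 0.39 in alcoholic rats and -0.01 to 0.46 in controls, and its difference was -0.02 (SE 0.12, with an interval in fold from 0.816 to 1.19). It was -0.07 without pair 1 and 0.05 without pair 2.

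Kcnk2, a leak channel opened by stretch, lipids and volatile anaesthetics, varied more over the arrays than any other channel clone, with an SD of 1.69. Kcnk2 and Kcnk3 were the 2 channel clones with an SD above 1, which 3.59% of complete clones and single-spot unnamed features had. Its alcoholic ratios were 5.07, 0.07, -0.16, -0.21, 2.73 and 1.70 in pairs 1 to 6. The control ratios were 2.45, 1.55, 0, 2.92, 0.45 and 3.38. High and low values occurred in both groups: the alcoholic rat stood higher by 2.62 in pair 1 and by 2.28 in pair 5, and lower in the other 4 pairs, with a difference of -3.13 in pair 4. Only in pair 3 were both spots measured in both rats, so the other differences compare unlike spots in part or in whole. In pair 1 the alcoholic spots read 2.50 and 7.63, and the control had its first spot alone, at 2.45. In pair 6 the alcoholic rat had only the first spot and the control only the second. The mean difference of -0.26 had an SE of 0.77 and turned to 0.32 without pair 4 and 0.03 without pair 6. It was -0.08 both with exact zeros kept and with quantile normalization. With the mean of each spot over the arrays subtracted before averaging, the difference was -0.13. Any change of Kcnk2 between 0.240-fold and 2.91-fold lay within the interval.

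Kcnk3 encodes a leak channel that closes when the fluid outside the cell turns acid. The alcoholic ratios in pairs 1 to 6 were 3.80, 2.78, 1.82, 0.26, 1.42 and 0.68, and the control ratios 3.66, 1.33, 2.34, 0.78, 0.66 and 4.16. Pair 6 stood apart, with a difference of -3.48, while the other differences lay between -0.52 and 1.45. On average Kcnk3 differed by -0.36 (SE 0.58), and without pair 6 it was 0.26. The first spot alone gave -0.14, the second -0.79, and the mean with exact zeros kept was -0.16. The control of pair 5 had its first spot alone. With the mean of each spot over the arrays subtracted before averaging, the difference was -0.25.

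For Kcnk2 and Kcnk3 the 2 spots of the clone disagreed. The gap between the spots had a median over the arrays of 2.15 for Kcnk2 and 1.5 for Kcnk3, and reached 5.13 and 4.74. In the other 19 channel clones that median was at most 0.34 (Cacna1g), with 0.06 for Kcnc1. The correlation of the 2 spots over the arrays ran from 0.005 (Trpc2) to 0.918 (Cacnb3), with a median of 0.70 over the channel clones. It was 0.36 for Kcnk2 and 0.42 for Kcnk3, but also 0.32 for Kcnk1, 0.34 for Cacna1g and 0.39 for Cacna1a. Exact zeros, treated as missing, made up 6 of the 24 spot values of Kcnk2 and 10 of the 504 of all channel clones. Among all 5043 named clones with 2 spots, 3.91% had a median gap over 1. Kcnk2 and Kcnk3 had mean log2 ratios of 1.66 and 1.97, and among the 746 clones with a mean ratio between 1 and 2 the share was 1.34%, with at least 1 exact zero in 10.1%. Among the 461 clones above 2 it was 40.6%. What sets the spots apart was not tested.

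**Figure D3:**
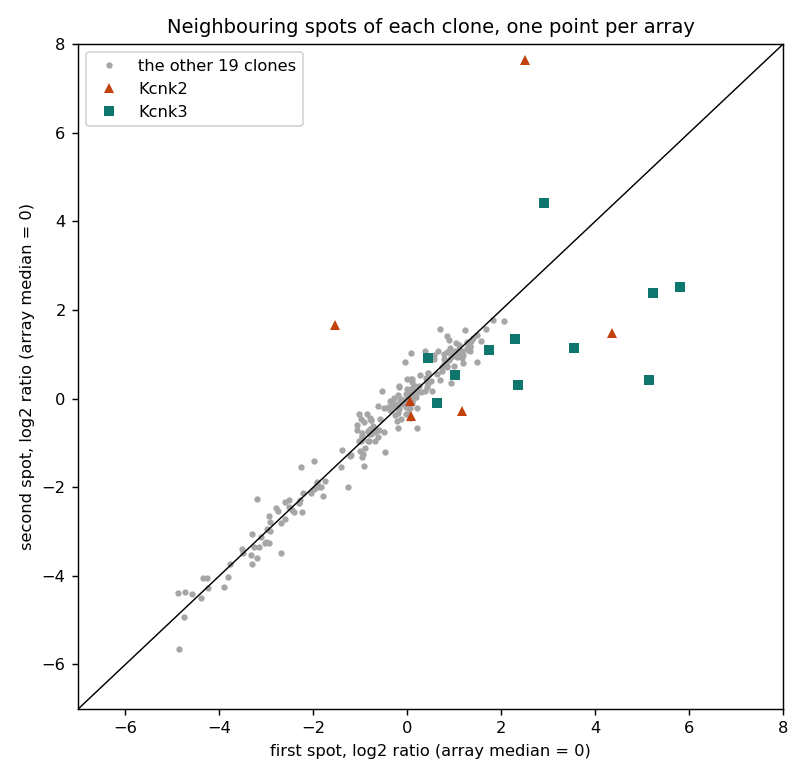
The axes are the log2 ratios of the first and second spot of each clone, array median at 0, with a point for each array on which both spots were measured; the line marks equal values. The points of Kcnk2 (triangles) and Kcnk3 (squares) scatter by up to 5.13 and 4.74 from equality. Among the other 19 clones the largest gap is 0.96 (Trpc7).

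**Figure D4:**
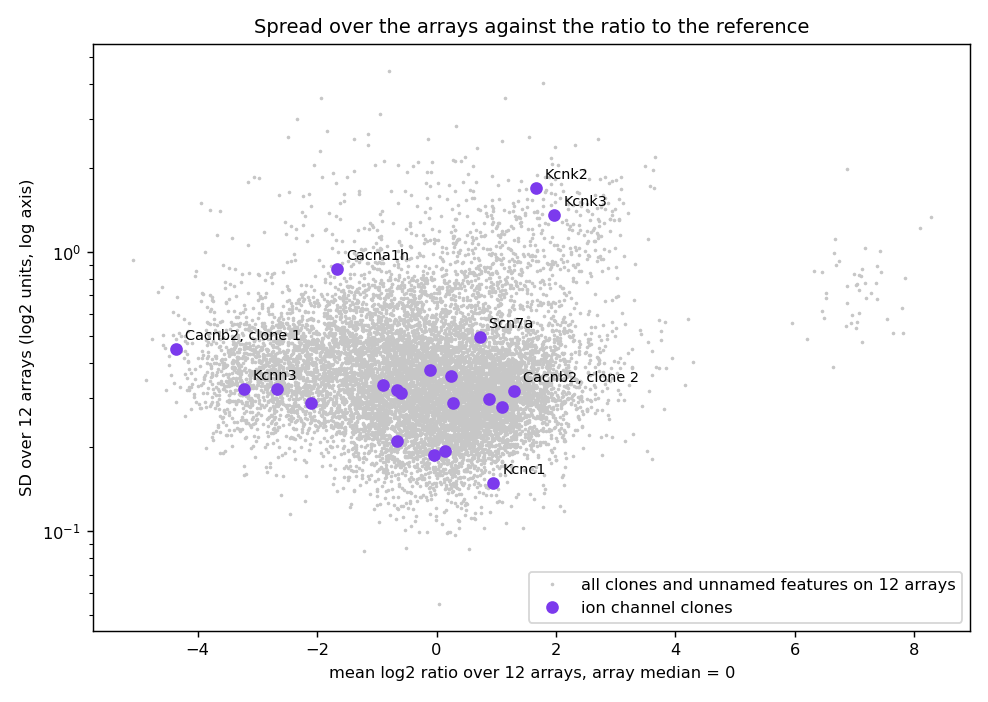
The horizontal axis is the mean log2 ratio over 12 arrays and the vertical axis, on a log scale, the SD over them; grey points are all 11470 clones and unnamed features complete on 12 arrays and purple points the 21 channel clones. Kcnk2 (SD 1.69) and Kcnk3 (SD 1.36) lie above most of the grey points and Kcnc1 (SD 0.15) below most of them.

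Of the sodium channel genes 2 were measured. Scn3b encodes an auxiliary beta subunit that tunes the gating and surface expression of the pore. Its ratios were -2.63 to -1.92 in alcoholic rats (median -2.13) and -2.49 to -1.70 in controls (median -1.93). The alcoholic rat was lower in 5 of 6 pairs, by 0.01 to 0.59, and higher by 0.56 in pair 1, where the control was the lowest of its group. The mean difference was -0.14 (SE 0.16), with -0.28 without pair 1 and -0.05 without pair 3.

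Scn7a encodes an atypical relative of the sodium channels that responds to the sodium concentration around the cell and not to voltage. Its ratios ran from 0.04 to 1.25 in alcoholic rats (median 0.90) and from -0.15 to 1.10 in controls (median 0.97). Low values came from pair 2 in both groups and from the control of pair 1, while the other 9 arrays stood at 0.73 or more. The alcoholic rat was higher in 5 of 6 pairs. The mean difference of 0.17 (SE 0.16) rested largely on pair 1, at 0.88, and was 0.02 without it.

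Among the calcium channel pores, Cacna1g and Cacna1h both encode low-threshold T-type channels, which open near rest and drive burst firing, and their differences had opposite signs. Cacna1g had the smallest p of all channel clones. Its ratios were -1.14 to -0.35 in alcoholic rats (median -0.74) and -0.88 to -0.08 in controls (median -0.48). Pairs 2, 3, 4 and 5 had differences of -0.38, -0.35, -0.12 and -0.54, while pairs 1 and 6 stood at 0.09 and 0.06. The mean difference was -0.21 (SE 0.13), a ratio of 0.866 with an interval from 0.707 to 1.06. Its first spot alone gave -0.34, with an unadjusted p of 0.0288 and an adjusted p of 0.998 by limma, and its second spot alone -0.07.

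Cacna1h was the most variable clone after Kcnk2 and Kcnk3, with an SD of 0.87 over the arrays. Here the 2 spots agreed, with a median gap of 0.26. The alcoholic ratios in pairs 1 to 6 were -1.90, -1.63, -2.01, -0.98, -1.23 and -1.10, and the control ratios were -3.08, -3.18, -0.90, -0.62, -0.90 and -2.40. The controls thus comprised 3 low and 3 high arrays, and the alcoholic rats lay between them. In pairs 1, 2 and 6 the difference was 1.18, 1.55 and 1.30, and in pairs 3, 4 and 5 it was -1.11, -0.36 and -0.34. The mean difference of 0.37 (SE 0.38) was 0.13 without pair 2 and 0.67 without pair 3.

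Cacna1a, the pore of the P/Q-type channel that triggers transmitter release, had ratios of 0.51 to 1.20 in alcoholic rats (median 0.84) and 0.40 to 1.21 in controls (median 0.97). It differed by -0.04 (SE 0.13, lower in 4 of 6 pairs), a ratio of 0.972 with an interval from 0.792 to 1.19. The sign turned without pair 5 (0.04), and the value was -0.12 without pair 1. On single spots it was -0.19 for the first and 0.11 for the second.

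The beta subunits sit inside the cell, bring the calcium pore to the membrane and set its gating; all 4 clones of the 3 measured genes had positive differences, from 0.06 to 0.15, none of which passed the test. Cacnb1 had ratios of 0.06 to 0.79 in alcoholic rats (median 0.27) and -0.06 to 0.72 in controls (median 0.12). Its difference was 0.08 (SE 0.12), with 0.16 without pair 1 and 0.01 without pair 6, and 0.14 and 0.01 on the first and second spot alone. Cacnb3 had 1 high value, 1.27 in the alcoholic rat of pair 2, while the other 11 arrays lay between -0.21 and 0.40. Its difference of 0.15 (SE 0.19) came to -0.03 without that pair.

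The 2 clones of Cacnb2 gave very different ratios. The second clone (features 4515 and 4516) lay at 1.01 to 1.80 in alcoholic and 1.02 to 1.90 in control rats. The first clone (features 655 and 656) lay at -4.84 to -3.93 and -5.25 to -3.52. Their means were 5.66 apart, with a gap of 4.54 to 6.64 on single arrays. Among the 384 genes with exactly 2 complete clones the median gap was 1.30, and 5 genes, Cacnb2 among them, reached the gap of Cacnb2. The difference between groups was 0.08 (SE 0.20) for the first clone, which turned to -0.04 without pair 2 and was 0.25 without pair 6. It was 0.06 (SE 0.12) for the second clone, with 0.002 without pair 3 and 0.11 without pair 2. Which of the 2 clones reads the gene that the annotation names was not tested.

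Clcn2 encodes a chloride channel that opens on hyperpolarization. Its alcoholic ratios were -0.73 to -0.32 (median -0.67) and its control ratios -0.97 to -0.21 (median -0.75). In 5 of 6 pairs the alcoholic rat was higher, by 0.08 to 0.40, and in pair 3 it was lower by 0.52. Clcn2 differed by 0.09 (SE 0.14) on average. The value was 0.22 without pair 3, whose control stood above the rest of its group, and 0.03 without pair 4, and 0.03 and 0.15 on the first and second spot alone.

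Of the TRP cation channels, Trpv1 is the capsaicin and heat receptor of sensory neurons. Its ratios were alike within most pairs: the alcoholic and control rats of pair 3 had -0.29 and -0.30, those of pair 4 -0.27 and -0.26, and those of pair 1 -0.79 and -0.80. Pair 2 departed most, with -1.26 against -0.70. The group medians were -0.85 and -0.69. The mean difference was -0.14 (SE 0.12), a ratio of 0.904 with an interval from 0.746 to 1.10, and it was -0.06 without pair 2.

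Trpc7, a channel opened by diacylglycerol after receptor activation, had ratios of 0.77 to 1.46 in alcoholic rats and 0.55 to 1.43 in controls, with medians of 1.08 and 1.14. Its difference was 0.01 (SE 0.18). Single pairs ranged from -0.56 in pair 6 to 0.72 in pair 4, and leaving out 1 pair gave -0.14 without pair 4 to 0.12 without pair 6. Trpc2, best known from pheromone sensing in the vomeronasal organ of rodents, stayed within -0.23 to 0.34 on all arrays. It differed by -0.02 (SE 0.12), and by 0.06 without pair 2. Trpc4ap had ratios of -0.61 to 0.50 in alcoholic rats and -0.72 to 0.43 in controls, and a difference of 0.04 (SE 0.15) that turned to -0.06 without pair 6.

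Against the reference, the channel clones spread over both sides of the array median. Above it on all 12 arrays were 5 clones, where 31.6% of complete clones and features were: Kcnc1, Kcnk3, Cacna1a, Cacnb2 (clone 2) and Trpc7. Below it on all 12 arrays were 9, where 36% of complete clones and features were: Kcnd1, Kcnn3, Kcnj11, Scn3b, Cacna1g, Cacna1h, Cacnb2 (clone 1), Clcn2 and Trpv1. The other 7 lay on both sides. Kcnn3 (mean -3.23), Kcnj11 (mean -2.67) and Scn3b (mean -2.10) were the lowest after clone 1 of Cacnb2 (mean -4.36). Kcnk3 (mean 1.97) and Kcnk2 (mean 1.66) were the highest.

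The pairs did not share a direction. In pair 1, 18 of the 21 channel clones were higher in the alcoholic rat, with a median difference of 0.22, while 56.2% of all tested were higher in that pair. In pair 3, 14 were lower, with a median of -0.07, while the median of all tested was 0.01. Pairs 2, 4, 5 and 6 had medians of -0.12, 0.04, -0.01 and -0.10. The SD of the pairs' medians, 0.13, was larger than the median difference of the channel clones, 0.04. That SD measures the spread of single pairs and not the uncertainty of the median difference.

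Paired arrays tended to resemble each other in most clones and features, and in most channel clones. For 17 of the 21 the SD of the pair means exceeded that of the within-pair differences divided by 2, as for 74.2% of complete clones and features. The ratio of these spreads was 2.99 for Cacnb2 (clone 2), 2.72 for Trpv1 and 2.35 for Scn7a. It was 0.596 for Kcnd1 and 0.751 for Trpc7, the 2 lowest of the channel clones. The resemblance was uneven between pairs. Deviations of paired arrays from their group means correlated across features at 0.03 in pair 3 and 0.10 in pair 6, against 0.43 in pair 4. The labels do not say whether pairs also shared a hybridization day.

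**Figure D5:**
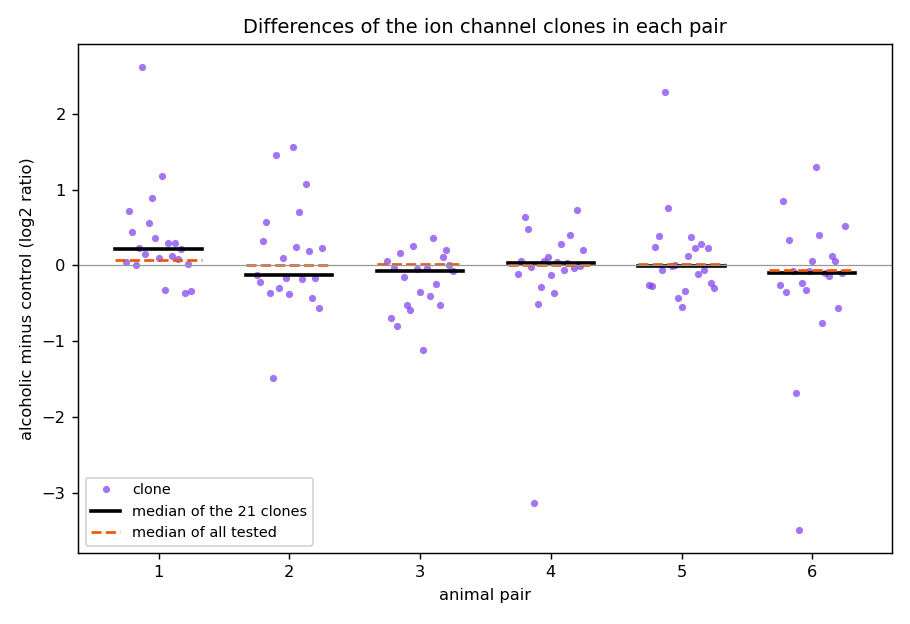
The horizontal axis is the animal pair and the vertical axis the alcoholic minus control difference in log2 ratio; each point is 1 of 21 channel clones, black bars are their medians and dashed bars the medians of all tested. The black bar is highest in pair 1 (0.22) and lowest in pair 2 (-0.12).

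Other genes that work beside these channels were followed by a list of 90: partners of potassium and sodium channels, calcium release and clearance, the sodium pump, chloride handling and other cation channels. Of these 29 genes, or 34 clones, were measured, and limma called 0 at an adjusted p of 0.05, with 2 at an unadjusted p under 0.05 (2.42% of all tested). These were P2rx5, an ATP-gated cation channel gene, at 0.93 (SE 0.34, higher in 5 of 6 pairs), and 1 of the 3 clones of the ubiquitin ligase gene Nedd4, at 1.68 (SE 0.52, higher in 5 of 6 pairs). Values of that Nedd4 clone spread widely, with an SD of 3.73 among alcoholic and 3.53 among control rats. The other Nedd4 clones differed by -0.003 and 0.03. Positive differences numbered 20 and negative ones 14, with a median of 0.02. The sodium pump clones, which read its beta subunits Atp1b1 and Atp1b3 and its regulators Fxyd1 and Fxyd7, had 6 of 6 positive differences, though only 4 genes stand behind them, with a median of 0.10, from 0.03 to 0.19. Calcium release and clearance clones had a median of 0.01 and those for chloride handling -0.06. Sodium channel partners and other cation channels had medians of 0.00 each, and potassium channel partners had 0 of 9 genes measured.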

How the data were processed

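RNA from 6 alcoholic and 6 control rats was hybridized against a reference on 12 arrays. The authors deposited log2 ratios of 18144 features per array; that they are log2 was read from the values, which reach 13.92 in size, and background correction, filters and normalization are not given in the sources used here. Here, exact zeros were set to missing, the median of every array was subtracted, and spots of one accession and symbol were averaged into a clone; features with several symbols (1092) or none (6934) stayed unnamed. Clones of one gene were kept apart, since their ratios can differ and a missing value would turn that into a difference. Where a spot of a clone was missing, the value of the clone was the other spot alone.

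Clones and unnamed features with both rats in at least 4 pairs, 12343 in number, were tested with limma's lmFit and eBayes (limma 3.58.1, R 4.3.3). The fit had a block for the animal pair, Benjamini-Hochberg adjustment and a threshold of 0.05. Intervals are at 95%. The test was tested on simulated data, and 17 alternatives in normalization, filters, averaging, block and pairs were run. The pairs come from the labels. Deviations of paired arrays from their group means correlated across features at 0.03 (pair 3) to 0.43 (pair 4), with a mean of 0.23, against -0.05 for arrays of different pairs. Samples were grouped by their titles. The number of arrays limits the precision, and signal over background was not used here. The symbol rule that defines the members uses no measured value, but it and the gene lists were drawn up with earlier results of these data known. Named genes were to be the clones called, those with the smallest p, the most extreme mean ratio or the widest pair differences, genes known from ethanol or brain stem physiology, and genes with several clones; since there were only 21 clones, all are named.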

Additional observations from a re-analysis of the deposited data

Results flagged for a closer look

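Of 42 groups of 6 arrays (21 channel clones in alcoholic and in control rats), 3 held 1 rat far from the others of its group, where chance gives about 1 in 20, or 2 of 42. Cacnb3 stood at 1.275 in the alcoholic rat of pair 2, with the other alcoholic rats at 0.27 or less. Clcn2 stood at -0.315 in the alcoholic rat of pair 4, with the others from -0.73 to -0.63. Clcn2 also stood at -0.21 in the control rat of pair 3, with the other controls from -0.97 to -0.71.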

How the results depend on the processing

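Under 17 alternatives (11 settings and leaving out each of the 6 pairs) the count of channel clones past an adjusted p of 0.05 was 0 in limma's test each time, and at most 1 clone or spot had an unadjusted p under 0.05. Over all tested the count at an unadjusted p under 0.05 was 299 of 12343 (2.42%), against 144 (1.17%) in the fit with no pair block and 455 of 12121 (3.75%) without pair 3; on single features it was 406 of 17012 (2.39%). The values without centring called 4 features, none of them a channel clone. The median difference of the channel clones, 0.04, was -0.01 without centring, which shifts the median of all tested to -0.05. It was 0.02 to 0.06 under the other settings and 0.002 to 0.04 with a pair left out. All of these moved by less than the SD of the pairs' medians, 0.13, which is a spread of single pairs. With no pair block the median difference was 0.04 as before, with the smallest unadjusted p by limma rising from 0.140 to 0.278. The count above the array median on all arrays, 5, lay between 4 and 6 under alternatives chosen after seeing the data. Signs turned for Trpc2 with exact zeros kept (0.079) and on its first spot (0.19), for Trpc4ap without centring (-0.012), for Trpc7 without centring (-0.045), with quantile normalization (-0.0063) and on its second spot (-0.046), for Cacnb2 (clone 1) on its first spot (-0.0425), and for Kcnk1 (0.094) and Cacna1a (0.11) on their second spots. With 1 pair left out, signs turned in 10 clones, with ranges of -0.08 to 0.23 for Kcnd1, -0.042 to 0.25 for Cacnb2 (clone 1), -0.073 to 0.047 for Kcnk1, -0.032 to 0.23 for Cacnb3, -0.073 to 0.058 for Trpc2, -0.14 to 0.12 for Trpc7, -0.83 to 0.32 for Kcnk2, -0.12 to 0.036 for Cacna1a, -0.72 to 0.26 for Kcnk3 and -0.056 to 0.12 for Trpc4ap; the other 11 kept their sign under all 17. The cause was not tested. On single spots 12 of 20 clones moved by over 1.5 times. Kcnk2 had no value on single spots, which were measured in under 4 pairs.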
